A study of Homo sapiens with 6 samples.

Results

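Collagen genes were examined in RNA-seq libraries of Hey and SKOV3, 2 established human lines of ovarian cancer, each sequenced as untreated parental cells, as polyploid giant cancer cells (PGCCs) and as daughter cells. The members are the rows of the deposited table whose symbol is COL followed by digits, an A and digits, without a hyphen or a trailing P. This rule uses names only and finds 44 of the 59008 gene symbols. Antisense, divergent and pseudogene rows of the same loci were left out. PGCCs were induced with 500 nM paclitaxel, which locks microtubules so that mitosis stalls, for 16 hours per the labels. Recovery lasted 3 days by the treatment labels of the PGCCs of either line, as do the study's methods, whereas the title of the SKOV3 PGCC library names day 7. Daughter cells are the small cells that bud from PGCCs. Their labels give the same drug exposure and 30 days of recovery, and each daughter library is labelled as clone 1, so it may carry features of a single clone. Every condition was sequenced as 1 library, so no value has a replicate error, and the other cell line is the nearest to a repeat of each comparison.

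Collagens are secreted or membrane-bound proteins in which 3 chains wind into a triple helix. Fibrillar collagens such as types I, III and V form the fibers of connective tissue and are made mainly by fibroblasts. Type IV collagen forms the sheet-like network of basement membranes, which epithelial cells help to lay down, and type VI forms beaded filaments next to them. Fibril-associated, transmembrane, anchoring and multiplexin collagens link fibers, cells and basement membranes to each other. In ovarian cancer, collagen is best known as a product of the stroma, and the study asked how PGCCs act on collagen made by fibroblasts. The libraries examined here hold RNA of the cancer cells themselves.

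The authors deposited TPM values, transcript levels scaled by transcript length to a common total in each library, so that levels of different genes can be compared. The deposited columns summed to between 912000 and 920000, so their totals were close but not equal. TPM carries no read counts, so the depth behind a gene and its counting error are unknown. The number of genes with a nonzero TPM was lowest in Hey parental cells (19920) and highest in Hey PGCCs (25370). Of the epithelial list, the keratins KRT7, KRT8 and KRT18 were at a TPM of at least 220 in each library. PAX8, a transcription factor of Müllerian epithelium, was at 54.7 or more. KRT19 was at 80.2 to 711 in SKOV3 and at 3.6 or less in Hey. MSLN was at 21.5 or more in parental cells and PGCCs, but at 0.386 and 1.85 in the daughter cells of Hey and SKOV3. EPCAM, an epithelial adhesion molecule, was at 8.15 to 68.8 in SKOV3 and at 1.43 or less in Hey, where E-cadherin (CDH1) was at 0.03 or less. MUC16 of the same list was at 0.0322 or less in Hey and at 1.59 or less in SKOV3, and WT1 was at 0.53 to 4.1. Of the 10 fibroblast markers, 3 to 6 in Hey and 4 or 5 in SKOV3 had a TPM of at least 1. Their summed level was 214 to 276 in Hey, mostly PDPN and ACTA2, and 402 to 4860 in SKOV3, mostly S100A4. The fibroblast markers PDGFRA, THY1 and DCN were at 1.33 or less in each library, whereas others were higher. TAGLN was at 26.7 to 84.4 and LUM at 5.56 to 9.31 in SKOV3. FAP was at 2.86 to 13.0 in Hey, and PDGFRB was at 5.35 in SKOV3 daughter cells. The 5 endothelial markers summed to 34.0 to 49.2 in Hey, nearly all of it CDH5, and to 0.544 to 3.02 in SKOV3, while PECAM1 and VWF reached at most 0.315. The 5 leukocyte markers summed to 45.7 to 70.2 in Hey and 1.63 to 20.3 in SKOV3, mostly CD68, while CD3E and MS4A1 were listed at 0 and PTPRC reached at most 0.425. The part of other cell types in the collagen values was not tested. In SKOV3 the difference between PGCCs and parental cells followed the GC content of the transcript across 13468 genes (Spearman's rho 0.72), and that between PGCCs and daughter cells did so less (0.455). In Hey the same correlations were -0.0445 and -0.103. Collagen transcripts had a median GC content of 54.9% (range 40.8% to 67.4%) against 47.7% for all these genes. Values with the trend in GC content and length removed are therefore given for SKOV3 PGCCs where they change a call of a collagen gene. They are also given for some of the genes whose direction alone changed.

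Type IV genes of the basement membrane took the largest or next to largest share of the collagen TPM in every library. The other leading class was beaded filament genes in Hey, and fibril-associated or multiplexin genes in SKOV3. Fibrillar genes took 6.5% to 16.1%. Summed over the 44 genes, collagen took 182, 221 and 297 TPM in the parental, PGCC and daughter libraries of Hey, and 331, 498 and 449 in those of SKOV3. Series of values below keep this order. All 3 sums of SKOV3 thus lay above those of Hey, and in each line parental cells had the lowest sum. These sums were 0.0198% to 0.0544% of the TPM of a library. Because the RNA comes from whole cultures, fewer expressing cells and less RNA per cell cannot be told apart.

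Of the 44 genes, 16 reached a TPM of 10 in at least 1 library, 7 peaked between 1 and 10, and 21 stayed under 1 throughout. The last group included COL1A2, the partner chain of COL1A1 in type I collagen, and COL3A1, the gene of type III collagen, which reached at most 0.835 and 0.08. It also included the cartilage collagen gene COL2A1 and COL6A3, a further chain of type VI collagen. COL6A6 was listed at 0 in all 6 libraries, and 22 genes were above 0 in all 6. Hey PGCCs had 39 of the 44 genes above 0, against 27 in Hey parental cells and 30 in Hey daughter cells. Over all genes, Hey PGCCs also had the most above 0, at 25370 against 19920 (parental library) and 20154 (daughter library). The SKOV3 counts were 32 (parental library), 34 (PGCC library) and 38 (daughter library), beside 22041, 23449 and 23893 over all genes. Within each line, the collagen count and the count over all genes ranked the libraries alike.

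**Figure D1:**
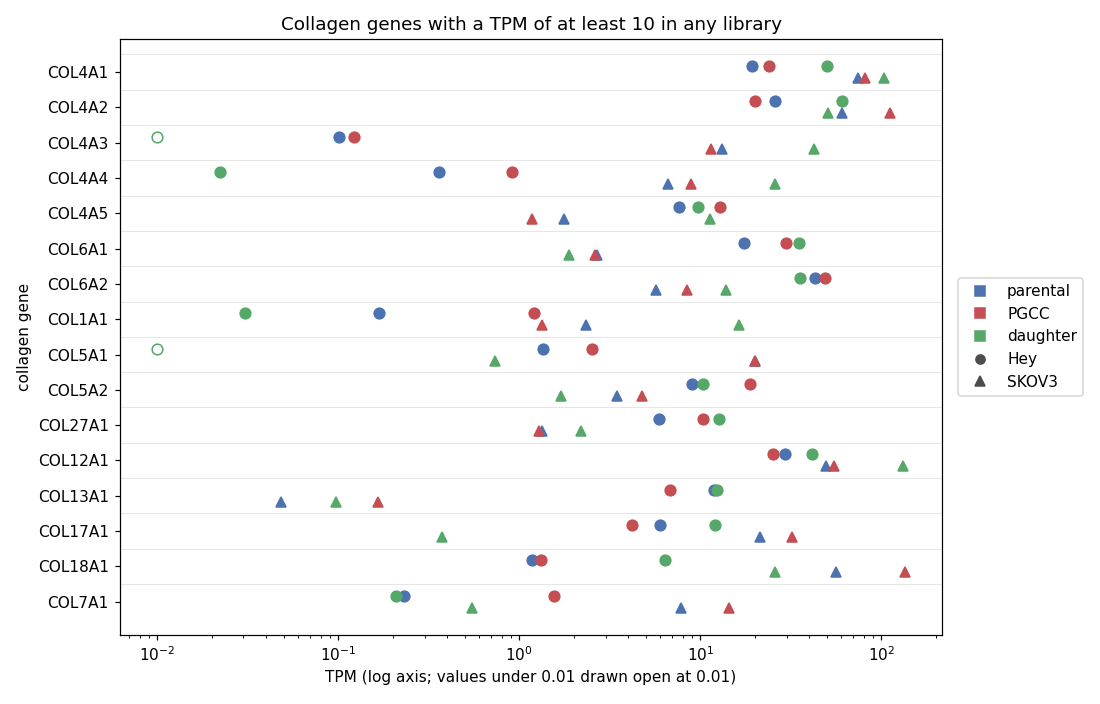
TPM of the 16 collagen genes that reached 10 in at least 1 library, on a log axis, with 1 point per library, colored by state and shaped by line (circles, Hey; triangles, SKOV3). COL13A1, COL6A1 and COL6A2 lie to the right in Hey, and COL4A3, COL4A4 and COL18A1 lie to the right in SKOV3.

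The make-up differed between the lines. Type IV genes took 26.9% to 41.0% of the collagen TPM in Hey and 43.1% to 52.1% in SKOV3. The beaded filament genes of type VI took 23.9% to 35.4% in Hey but 2.24% to 3.55% in SKOV3. Multiplexins, here nearly all COL18A1, took 0.649% to 2.15% in Hey and 5.74% to 27.1% in SKOV3. The highest single gene was COL6A2 in Hey parental cells and PGCCs (42.9 and 48.7 TPM) and COL4A2 in Hey daughter cells (60.8). In SKOV3 it was COL4A1 in parental cells (74.5), COL18A1 in PGCCs (135) and COL12A1 in daughter cells (132).

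**Figure D2:**
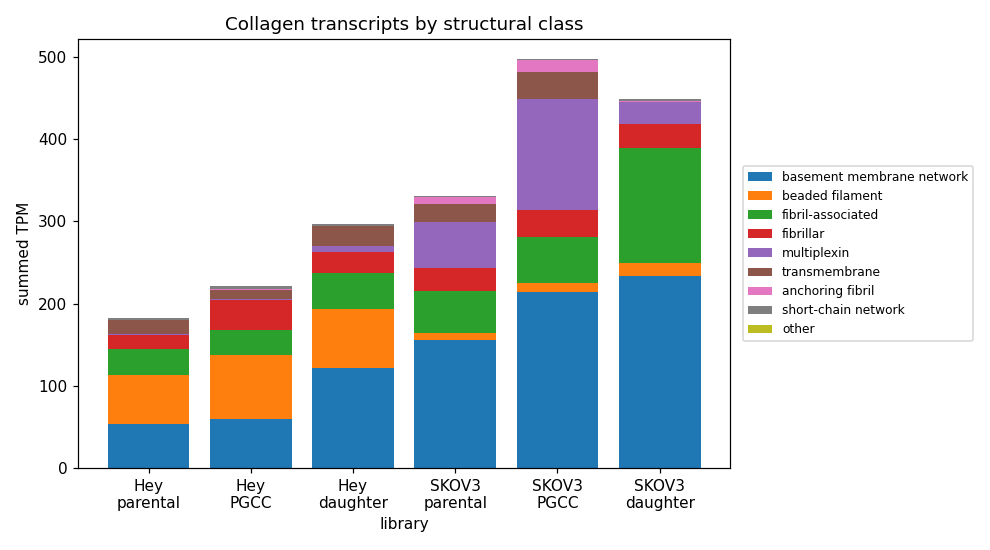
Summed TPM of the collagen genes in each library, stacked by structural class. The bars rise from 182 in Hey parental cells to 498 in SKOV3 PGCCs, and the beaded filament segment is wide in Hey and thin in SKOV3.

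The 6 type IV genes lie in the genome as 3 pairs whose members face away from each other. COL4A1 (chromosome 13, 110148963 to 110307157, minus strand) and COL4A2 (110305812 to 110513209, plus strand) form the common network of most basement membranes. COL4A3 (chromosome 2, 227164624 to 227314792, plus strand) and COL4A4 (227002714 to 227164453, minus strand) join COL4A5 in specialized membranes such as those of the kidney glomerulus. COL4A5 (chromosome X, 108439838 to 108697545, plus strand) pairs with COL4A6 (108155607 to 108439497, minus strand). The gene spans are those of GENCODE release 44 on GRCh38. The RefSeq start sites (GRCh38.p14) of the pairs are 127, 419 and 380 bases apart. The upstream sequences from RefSeq are shown because they lie between genes of a pair whose levels, given next, do not always go together. The first stretch is the whole interval between COL4A1 and COL4A2, whereas the sequences of the other pairs overlap by 82 bases (COL4A3 and COL4A4) and 121 bases (COL4A5 and COL4A6). Each is written 5′ to 3′ on the strand of the named gene and ends at the base before its start. Capitals mark a GC box (GGGCGG) or a CCAAT box (CCAAT) on either strand, letters known as binding sites of Sp1 and NF-Y factors.
COL4A2, with COL4A1 at the far end, chr13:110307158-110307283: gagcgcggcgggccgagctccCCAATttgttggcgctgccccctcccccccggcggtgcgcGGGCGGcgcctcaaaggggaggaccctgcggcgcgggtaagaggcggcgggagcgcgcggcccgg
COL4A3, chr2:227164374-227164623: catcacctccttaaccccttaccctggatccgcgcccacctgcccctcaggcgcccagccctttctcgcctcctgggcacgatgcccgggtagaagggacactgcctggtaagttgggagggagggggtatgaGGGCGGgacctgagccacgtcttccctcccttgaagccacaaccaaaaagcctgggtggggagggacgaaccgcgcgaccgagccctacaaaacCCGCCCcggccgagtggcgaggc
COL4A4, minus strand, chr2:227164206-227164455: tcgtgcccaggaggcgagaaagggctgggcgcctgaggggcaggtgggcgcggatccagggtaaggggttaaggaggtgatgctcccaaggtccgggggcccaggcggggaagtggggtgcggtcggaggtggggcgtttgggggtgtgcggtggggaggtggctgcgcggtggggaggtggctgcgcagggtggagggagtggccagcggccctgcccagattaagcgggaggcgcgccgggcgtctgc
COL4A5, chrX:108439588-108439837: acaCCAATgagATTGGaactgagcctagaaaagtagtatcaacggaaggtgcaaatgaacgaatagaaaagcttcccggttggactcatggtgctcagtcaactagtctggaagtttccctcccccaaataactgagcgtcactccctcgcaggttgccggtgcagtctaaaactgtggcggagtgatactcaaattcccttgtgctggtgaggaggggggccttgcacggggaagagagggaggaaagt
COL4A6, minus strand, chrX:108439459-108439708: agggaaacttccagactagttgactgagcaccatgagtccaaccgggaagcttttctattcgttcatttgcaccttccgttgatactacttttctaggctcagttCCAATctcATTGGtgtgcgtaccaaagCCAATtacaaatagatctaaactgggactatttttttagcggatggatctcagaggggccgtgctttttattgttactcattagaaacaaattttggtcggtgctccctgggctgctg

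The stretch between COL4A1 and COL4A2 held 1 GC box and 1 CCAAT box at a GC content of 80.2%. The COL4A3 sequence held 2 GC boxes, that of COL4A4 neither motif, and those of COL4A5 and COL4A6 2 and 3 CCAAT boxes without a GC box. The COL4A5 and COL4A6 sequences overlap, so 2 of the CCAAT matches are the same bases. Across windows of 300 bases, from 250 before to 50 after each start, 45.0% of 35116 promoters in the RefSeq table held a GC box and 34.6% a CCAAT box. The table has such a window for 32 collagen genes, of which 18 (56.2%) and 10 (31.2%) held them. A match is a description of these letters and not a measured site.

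COL4A1 and COL4A2 were among the 5 most abundant collagen transcripts of each library. COL4A1 was at 19.3, 24.0 and 50.4 TPM in Hey (parental, PGCC, daughter) and at 74.5, 81.1 and 103 in SKOV3. COL4A2 was at 25.9, 20.1 and 60.8 in Hey and at 60.4, 112 and 50.5 in SKOV3. In Hey daughter cells both genes of the pair were higher than in parental cells, by 1.34 and 1.20. These values, and the differences below, are differences of log2(TPM + 1), where 1 is the 2-fold threshold used for calls. In SKOV3 daughter cells the pair parted, with 0.47 for COL4A1 and -0.25 for COL4A2. The ratio of COL4A1 to COL4A2 was 0.726 to 1.23 in 5 libraries and 2.04 in SKOV3 daughter cells. In SKOV3 PGCCs COL4A2 differed from parental cells by 0.88, and by -0.11 with the GC and length trend removed. Where the spans of both genes overlap, reads of one may count for the other, since the strand setting is not given in the sources used here.

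COL4A3 and COL4A4 were transcripts of SKOV3. COL4A3 was at 13.2, 11.5 and 42.7 TPM in SKOV3 (parental, PGCC, daughter), against 0.102, 0.123 and 0 in Hey. COL4A4 was at 6.63, 8.92 and 25.8 in SKOV3, against 0.363, 0.91 and 0.0223 in Hey. The ranges of the lines were far apart for both genes. In SKOV3 daughter cells both exceeded parental cells, by 1.63 and 1.81, and PGCCs by 1.80 and 1.43, and with the trend removed they exceeded parental cells by 1.28 and 1.43.

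COL4A5 was at 7.66, 12.8 and 9.69 TPM in Hey and at 1.76, 1.17 and 11.4 in SKOV3. Its level in SKOV3 daughter cells thus reached the range of Hey, 2.17 above parental cells. COL4A6, which starts 380 bases from it, was at 0.186 to 1.49 in Hey and at 0 to 0.212 in SKOV3. So all 3 genes of the specialized network (COL4A3, COL4A4 and COL4A5) were higher in SKOV3 daughter cells than in the other SKOV3 libraries, and COL4A6 stayed low.

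**Figure D3:**
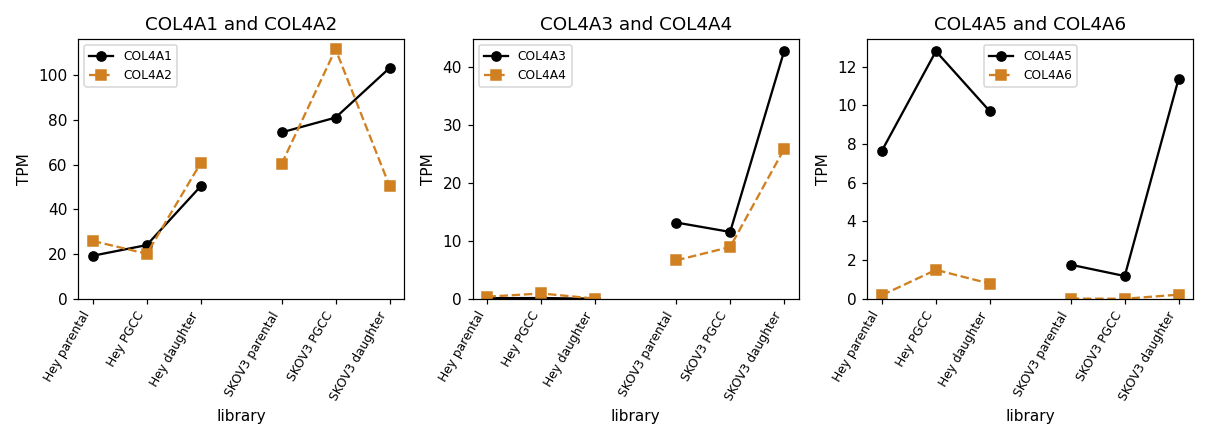
TPM of the type IV genes in the 6 libraries, 1 panel per head-to-head pair, on linear axes that start at 0 and differ between panels. COL4A3 and COL4A4 go together and are at 25.8 or more in SKOV3 daughter cells, whereas COL4A6 stays at 1.49 or less beside COL4A5.

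Type VI collagen needs COL6A1, COL6A2 and another chain, usually COL6A3. COL6A1 (chromosome 21, 45981770 to 46005050) was at 17.3, 29.6 and 35.1 TPM in Hey and at 2.69, 2.61 and 1.89 in SKOV3. COL6A2 (chromosome 21, 46098112 to 46132848) was at 42.9, 48.7 and 35.4 in Hey, and at 5.67, 8.45 and 13.9 in SKOV3. Both genes were higher in each Hey library than in any SKOV3 library. COL6A3 was at 0.144 to 0.543 in Hey and at 0.0791 to 0.0795 in SKOV3, so its ratio to COL6A2 was at most 0.0153. The alternatives to it, COL6A5 and COL6A6, were at 0.0322 or less. COL6A2 in SKOV3 daughter cells was 1.16 above parental cells, which came to 0.95 under median ratio scaling and 0.74 with the trend removed.

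Among the fibrillar genes, COL5A1 and COL1A1 varied most between states. COL5A1 (chromosome 9, 134641803 to 134844843) encodes the main chain of type V collagen, which starts and thins type I fibrils. It was at 1.35 and 2.52 TPM and listed at 0 in the parental, PGCC and daughter libraries of Hey, and at 19.9, 20.1 and 0.731 in those of SKOV3. It was the lowest in the daughter cells of both lines. Its partner COL5A2 (chromosome 2, 189031898 to 189225312) was at 9.04, 18.8 and 10.4 in Hey and at 3.46, 4.77 and 1.71 in SKOV3. COL5A2 was therefore the more abundant chain in all Hey libraries, whereas COL5A1 exceeded it 5.76-fold and 4.21-fold in SKOV3 parental cells and PGCCs. In SKOV3 daughter cells the ratio of COL5A1 to COL5A2 was 0.428.

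COL1A1 (chromosome 17, 50184101 to 50201632), the main chain of type I collagen, was at 0.169, 1.21 and 0.0306 TPM in Hey and at 2.35, 1.33 and 16.3 in SKOV3. Its highest level was thus in SKOV3 daughter cells, 2.37 above parental cells, where its partner COL1A2 was at 0.0137. Of the 10 fibroblast markers, PDGFRB was called higher in these daughter cells than in parental cells (0.28 to 5.35 TPM), and DCN (1.33 to 0.0292) and S100A4 (2430 to 304) were called lower. PDGFRA went from 0.0074 to 0.945 and TAGLN from 53.7 to 84.4, neither past the threshold. In both libraries 5 of the 10 had a TPM of 1 or more. 
COL27A1 (chromosome 9, 114155537 to 114312511), a fibrillar collagen of developing cartilage, was at 5.88, 10.4 and 12.7 in Hey and at 1.34, 1.28 and 2.19 in SKOV3. COL11A1, a minor fibrillar chain, was at 0.135, 1.26 and 5.77 in SKOV3 and at 0.346 or less in Hey. It was 2.58 above parental cells in SKOV3 daughter cells. COL24A1 had its highest level, 1.90, in Hey PGCCs, against 0.417 in parental cells.

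COL12A1 (chromosome 6, 75084326 to 75206267) was the leading fibril-associated gene. It encodes a chain that decorates type I fibrils. It was at 29.4, 25.2 and 41.4 TPM in Hey and at 49.5, 54.7 and 132 in SKOV3. It was highest in the daughter cells of both lines, by 0.48 over parental cells in Hey and by 1.39 in SKOV3 (1.04 with the trend removed). COL9A2, a cartilage collagen gene, was at 5.99 in SKOV3 daughter cells and at 0.51 or less elsewhere, and its partners COL9A1 and COL9A3 did not exceed 0.291. COL16A1 was at 3.86 in Hey PGCCs, against 0.981 in parental cells and 2.80 in daughter cells.

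The transmembrane collagens XIII and XVII showed separate patterns. COL13A1 (chromosome 10, 69801880 to 69964275), a protein of focal adhesions and the neuromuscular junction, was at 11.9, 6.76 and 12.4 TPM in Hey and at 0.0483, 0.165 and 0.0972 in SKOV3. COL17A1 (chromosome 10, 104031286 to 104085880) encodes the hemidesmosomal BP180 protein, which anchors epithelial cells. It was at 6.03, 4.21 and 12.1 in Hey and at 21.4, 32.2 and 0.377 in SKOV3, where daughter cells against parental cells differed by -4.02. COL7A1 (chromosome 3, 48564073 to 48595329) encodes the anchoring fibril collagen that attaches the same epithelial junctions to the stroma. It was at 0.231, 1.57 and 0.208 in Hey and at 7.78, 14.3 and 0.551 in SKOV3. In TPM both lines thus had their highest COL7A1 level in PGCCs. The level was lowest in daughter cells of SKOV3, while daughter and parental cells of Hey were nearly alike (-0.03), both under a TPM of 1. The difference between PGCCs and parental cells of SKOV3, 0.80, turned to -0.38 with the GC and length trend removed, so its direction there depends on the processing. For COL17A1 the same difference went from 0.57 to -0.02.

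COL18A1 (chromosome 21, 45405165 to 45513720) encodes the basement membrane proteoglycan that releases endostatin. It was at 1.18, 1.33 and 6.38 TPM in Hey and at 56.3, 135 and 25.7 in SKOV3, so the lines did not overlap. Its transcript has a GC content of 67.2%. The difference between PGCCs and parental cells of SKOV3, 1.25, came to 0.05 after subtraction of the trend in GC content and length. The antisense rows beside COL4A2, COL5A1 and COL18A1 reached at most 0.126 TPM.

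Compared with parental cells, PGCCs of Hey had 4 collagen genes past the 2-fold threshold and those of SKOV3 had 1. In Hey, 4 of the 44 genes were called higher by at least 2-fold (COL7A1, 1.06; COL16A1, 1.29; COL24A1, 1.03; COL4A6, 1.07), where 4.83% of the 31474 genes with a TPM above 0 in any library were. All 4 had a TPM under 1 in Hey parental cells. No collagen gene was called lower, against 2.63% of all genes. In SKOV3, 1 of the 44 was called higher (COL18A1), against 5.4% of all genes, and 0 were called lower (2.85%). In both lines together 0 were called higher (0.454% of all genes) and 0 lower (0.404%), and at such a background a count of 0 among 44 genes says little. The median difference over the 44 genes was 0.13 in Hey, with 34 genes above 0 and 5 below, and 0.013 in SKOV3, with 23 above and 13 below. Over all genes with a TPM above 0 the medians were 0.03 and 0. The share of all genes with a difference above 0 is not given, so the sign counts are not a result about collagen. Those above 0 in Hey include genes near the floor, such as COL9A3 (0 to 0.291 TPM) and COL21A1 (0 to 0.252). Of the 10 fibroblast markers, LUM (0 to 1.55 TPM) and TAGLN (0.162 to 3.66) were also called higher in Hey PGCCs, DCN went from 0 to 0.285, and the summed list went from 238 to 276. The mitochondrial share of the TPM was 2.64% for parental cells and 12.3% for PGCCs of Hey, and 9.17% and 7.37% for those of SKOV3. The part of these in the collagen values was not tested. With the lower pseudocount of 0.1 there were 16 collagen genes called higher in Hey, 5 in SKOV3 and 3 in both. A lower pseudocount enlarges the differences of low genes of any kind. The share over all genes at that setting is not given, so these counts are not a result about collagen.

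In SKOV3 PGCCs, subtracting the trend of all genes in GC content and length changed which collagen genes were called against parental cells. A relation to GC content over the collagen genes alone was not tested. As deposited, COL27A1 and COL6A1 differed by -0.04 and -0.03 at a GC content of 61.3% and 63.5%. With the GC and length trend removed, 0 collagen genes were called higher and 7 lower, and the share over all genes at that setting is not given. Of the 7, COL1A1 (-1.47), COL27A1 (-1.02) and COL6A1 (-1.01) had a mean TPM of 1 or more. COL20A1, COL23A1, COL5A3 and COL9A3 stayed under a TPM of 1 in all libraries, so that the subtracted trend was nearly their whole value. Other genes turned in direction without a call. Among them were COL4A1 (0.12 to -0.44), COL6A2 (0.50 to -0.59), COL5A1 (0.01 to -0.92), COL11A2 (0.98 to -0.08) and COL16A1 (0.08 to -0.90). In Hey PGCCs against parental cells, COL1A1 (0.92 to 1.10) and COL5A2 (0.98 to 1.02) passed the threshold with the trend removed. COL7A1, COL16A1, COL24A1 and COL4A6 stayed past it there. With the trend removed, the median over the 44 genes was -0.36 in SKOV3 and 0.31 in Hey. Because 21 of the 44 stayed under a TPM of 1 throughout, these medians hold much of the subtracted trend itself. COL2A1, listed at 0 in parental cells and PGCCs of both lines, came to -0.96 in SKOV3 and 0.21 in Hey.

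**Figure D4:**
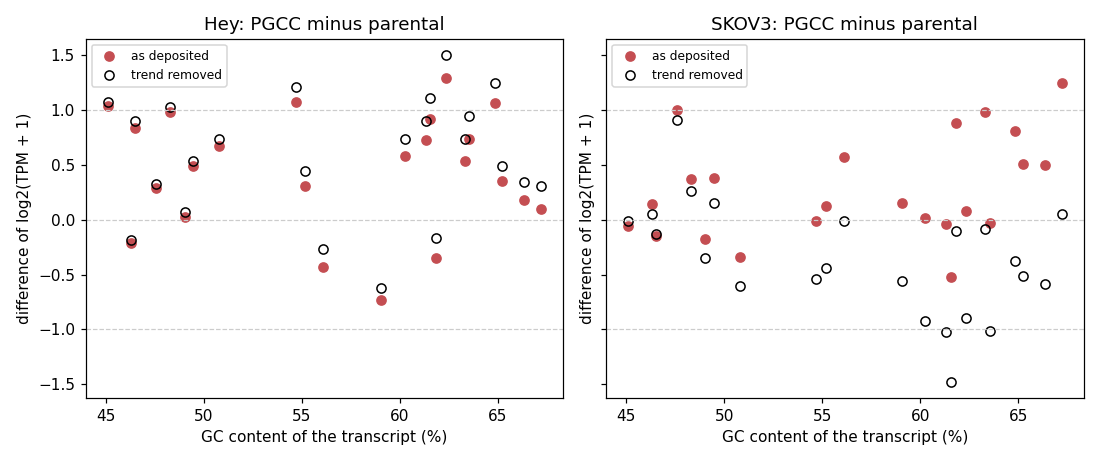
Difference of log2(TPM + 1) between PGCCs and parental cells for the 23 collagen genes that reached a TPM of 1, against the GC content of the transcript in percent, as deposited (filled) and with the trend in GC content and length removed (open). In SKOV3 the open points of GC-rich genes lie below the filled ones, COL18A1 going from 1.25 to 0.05, while in Hey the open points lie slightly above.

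Compared with parental cells, daughter cells of Hey had 4 collagen genes past the threshold and those of SKOV3 had 12, while over all genes more were past it in SKOV3 too. With the pseudocount of 0.1 the collagen counts were close, at 12 higher and 4 lower in Hey and 13 higher and 4 lower in SKOV3. Shares over all genes at that pseudocount are not given. In Hey, 3 of the 44 were called higher (COL4A1, 1.34; COL4A2, 1.20; COL18A1, 1.76), against 3.7% of all genes, and 1 was called lower (COL5A1, -1.24; 2.02% of all genes). In SKOV3, 8 were called higher, against 9.57% of all genes. These were COL9A2 (2.76), COL11A1 (2.58), COL1A1 (2.37), COL4A5 (2.17), COL4A4 (1.81), COL4A3 (1.63), COL12A1 (1.39) and COL6A2 (1.16). Another 4 were called lower, against 3.67%. They were COL17A1 (-4.02), COL5A1 (-3.59), COL7A1 (-2.50) and COL18A1 (-1.10), and COL17A1 and COL7A1 are the collagens of epithelial anchoring described above. In both lines 0 genes were called higher (0.6% of all genes) and 1 lower, COL5A1 (0.194%). The medians over the 44 genes were 0.019 in Hey and 0.058 in SKOV3, against 0 and 0.017 over all genes with a TPM above 0. The PGCC and daughter comparisons share the parental libraries. The mitochondrial share was 7.6% for daughter cells of Hey and 14.8% for those of SKOV3, each above its parental library. Leaving mitochondrial genes out gave 6 collagen genes called higher in Hey and 8 in SKOV3, also without a share over all genes.

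Compared with daughter cells, PGCCs of both lines had more COL5A1 and COL7A1. This comparison and the first share the PGCC libraries, and it shares the daughter libraries with the second, so the counts are not independent. In Hey, 3 of the 44 were called higher in PGCCs (COL5A1, 1.81; COL1A1, 1.10; COL7A1, 1.09), against 4.97% of all genes. In SKOV3, 6 were (COL17A1, 4.59; COL5A1, 3.61; COL7A1, 3.30; COL18A1, 2.35; COL4A2, 1.13; COL5A2, 1.09), against 5.23%. The 2 genes called higher in both lines, COL5A1 and COL7A1, compare with 0.55% of all genes. Called lower in PGCCs were 4 genes in Hey (COL18A1, -1.67; COL4A2, -1.55; COL17A1, -1.33; COL4A1, -1.04), against 5.18% of all genes. In SKOV3, 7 were called lower, against 9.01%, and these were the 8 genes called higher in daughter than in parental cells except COL6A2. In both lines 0 were called lower (0.6%). With the trend removed, COL5A1 was higher in PGCCs by 2.14 in Hey and 3.23 in SKOV3, and COL7A1 by 1.35 and 2.76. In SKOV3, COL4A2 came to 0.69 and COL12A1 to -0.98, both short of the threshold, whereas COL6A2 went from -0.66 to -1.27 and passed it.

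**Figure D5:**
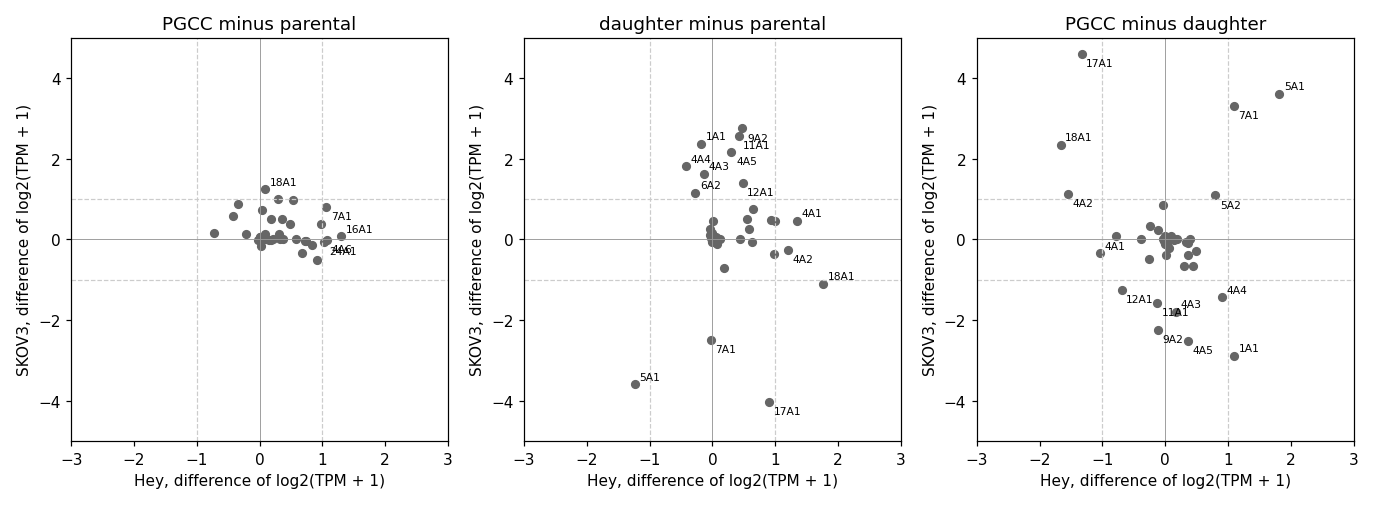
Difference of log2(TPM + 1) of the 44 collagen genes in Hey (x axis) against SKOV3 (y axis) for each comparison, with dashed lines at the 2-fold threshold and genes past it in either line labelled without the prefix COL. For PGCCs minus daughter cells, COL5A1 and COL7A1 lie past 2-fold in both lines at the upper right, while COL17A1, COL18A1, COL4A2 and COL1A1 lie past it in opposite directions.

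With both lines in 1 model, limma (state and cell line as terms, 2 residual degrees of freedom) was run on the 14988 genes whose mean TPM was 1 or more, among them 21 collagen genes. For PGCCs against parental cells 0 of these had an adjusted p under 0.05 by limma, against 0.02% of all genes tested. An unadjusted p under 0.05 by limma was reached by 0 of the 21, against 2.73% of all genes tested. For daughter against parental cells 0 had an adjusted p under 0.05 by limma (0.0133% of all genes) and 2 an unadjusted one (3.39%). For PGCCs against daughter cells it was again 0 (0% of all genes), with 3 at an unadjusted p under 0.05 by limma (5.06%). COL5A1 was 2.71 higher in PGCCs than in daughter cells (standard error 0.64; unadjusted p 0.00358 and adjusted p 0.908 by limma), in both lines. COL7A1 was 2.20 higher (standard error 0.70; unadjusted p 0.0159 and adjusted p 0.908 by limma), in both lines, and COL12A1 was 0.97 lower (0.39; 0.041 and 0.908 by limma), also in both. No difference between states thus passed the correction for the number of genes.

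Several collagen genes differed between the cell lines in every state. The lines were grown in different media per the labels, so line and medium cannot be told apart. In all 3 states, 5 of the 44 genes were at least 2-fold higher in Hey (COL13A1, COL6A1, COL6A2, COL27A1 and COL5A2), where 2.28% of all genes were. Another 4 were at least 2-fold higher in SKOV3 in all 3 states (COL4A3, COL18A1, COL4A4 and COL4A1), where 5.6% of all genes were. In the limma model COL13A1 was 3.32 higher in Hey (standard error 0.42; adjusted p 0.00243) and COL6A1 3.01 higher (0.38; adjusted p 0.00251), each in 3 of 3 states. COL4A3 differed by -4.20 between Hey and SKOV3 (standard error 0.49; adjusted p 0.00186 by limma) and COL18A1 by -4.15 (0.70; adjusted p 0.00779 by limma), also in 3 of 3 states. In all, 11 collagen genes had an adjusted p under 0.05 for this contrast by limma, against 20.6% of all genes tested. The other 7 were COL4A4, COL4A1, COL6A2, COL27A1, COL5A2, COL5A1 and COL12A1. The 3 states of a line derive from 1 cell line and are not replicates of the line. The filter on the mean favors genes that are high in 1 line, so this count is not support for a difference particular to collagen. With all 31474 genes in the model, 0 collagen genes passed.

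Genes that modify, fold, process, cross-link, bind and degrade collagen were taken as 7 lists with 61 genes. In PGCCs against parental cells, 7 of the 61 were called higher and 3 lower in Hey, and 4 higher and 3 lower in SKOV3. Over all genes with a TPM above 0, 4.83% and 2.63% were called higher and lower in Hey, and 5.4% and 2.85% in SKOV3. Among genes whose mean TPM was 1 or more the shares were 7.67% and 5.22%, and 9.94% and 4.96%. The collagen chaperone SERPINH1 (HSP47) was at 49.4, 54.0 and 94.8 TPM in Hey and at 97.5, 135 and 78.7 in SKOV3. No gene of the folding and export list was called in PGCCs against parental cells in either line. LOX, the lysyl oxidase that cross-links collagen, was at 35.5, 47.8 and 9.95 in Hey and at 6.15, 3.96 and 5.71 in SKOV3. LOX was called only in Hey daughter cells, 1.74 below parental cells and 2.16 below PGCCs. Its relative LOXL1 was called lower in Hey PGCCs (11.6 to 2.57 TPM) and higher in SKOV3 PGCCs (1.05 to 4.27).
Among the hydroxylases, P4HA2 (8.73 to 25.9) and P3H2 (5.60 to 14.4) were called higher in Hey PGCCs, and PLOD2 was called lower in SKOV3 PGCCs (32.3 to 15.5). In Hey PLOD2 was at 408 to 587 TPM, above every SKOV3 library.

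DDR1, a receptor tyrosine kinase for collagen, was the 1 gene of these lists called higher in PGCCs than in parental cells of both lines, where 0.454% of all genes were. It was at 3.92, 12.4 and 2.50 TPM in Hey and at 14.2, 34.8 and 54.8 in SKOV3. With the trend removed its difference in SKOV3 PGCCs came to 0.37. The related receptor DDR2 was at 31.6 to 66.7 in Hey and at 1.71 or less in SKOV3. ITGA1, a collagen-binding integrin chain, was lowest in the daughter cells of both lines (1.41 in Hey and 0.202 in SKOV3, against 2.31 or more elsewhere). MMP1, the interstitial collagenase, was at 1.41, 98.1 and 0.951 TPM in Hey and at 344, 114 and 0.342 in SKOV3, and was called higher in the PGCCs of each line than in its daughter cells. MMP14, a membrane-bound collagenase, was at 210 to 299 in Hey and at 0.96 or less in SKOV3. The fibril-binding proteoglycans were scarce, with LUM at 5.56 to 9.31 in SKOV3 and the other 5 genes at 1.33 or less throughout. In Hey LUM was listed at 0 in parental and daughter cells and was at 1.55 in PGCCs, called higher there against both.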

How the data were processed

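RNA was sequenced as 1 library per condition. Per the labels and the study's methods, the authors trimmed reads with fastp, quantified them on the human transcriptome (hg38) with salmon 0.14.1 and deposited TPM as 1 value per gene symbol. The annotation, the strand setting and the way transcripts were combined are not given in the sources used here. TPM is relative within a library, so abundant RNA such as mitochondrial transcripts lowers all other values, and a GC bias of 1 library shifts GC-rich genes.

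From the deposited TPM, differences of log2(TPM + 1) were computed. They understate changes of low genes. A gene was called at a difference of at least 1, and 1 library against 1 was given no p-value. Background shares count all genes with a TPM above 0 in any library. Limma 3.58.1 (R 4.3.3; eBayes with trend, Benjamini-Hochberg adjustment, threshold 0.05) was run on genes whose mean TPM was 1 or more. A state was compared with cell line as a term. All other steps used Python 3.11.15 with pandas 2.3.3 and statsmodels 0.14.6. Steps were tested on simulated data. Values in all libraries are given for collagens with a TPM of at least 10 in any library or called alike in both lines, for LOX and SERPINH1, and for list genes called alike in both lines for PGCCs with a TPM of at least 10. Other collagen and list genes are named beside the counts they belong to. GC content and length are those of the canonical GENCODE 44 transcript, which all 44 members had, and 32 had a RefSeq promoter. The members, lists and tests were chosen with earlier results of these data known. Alternatives were a pseudocount of 0.1, the mean TPM filter, median ratio scaling, mitochondrial genes left out, and a lowess trend (fraction 0.3, 2 passes) in GC content and log length subtracted.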

Additional observations from a re-analysis of the deposited data

Results flagged for a closer look

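In 5 instances a collagen gene was called in opposite directions in the lines, each from 1 library against 1, so the difference between the lines was not tested. For daughter against parental cells, COL18A1 differed by 1.76 in Hey and by -1.10 in SKOV3. For PGCCs against daughter cells, COL18A1 differed by -1.67 in Hey and 2.35 in SKOV3, COL17A1 by -1.33 and 4.59, COL4A2 by -1.55 and 1.13, and COL1A1 by 1.10 and -2.89. With the GC and length trend removed these values were -1.50 and 1.71 for COL18A1, -1.07 and 4.41 for COL17A1, -1.25 and 0.69 for COL4A2, and 1.39 and -3.32 for COL1A1.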

How the results depend on the processing

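Counts of collagen genes under the alternatives are given without shares over all genes, so they show the effect of a setting and not a result about collagen. The lower pseudocount of 0.1 gave 16 higher in Hey PGCCs than in parental cells (4 with the pseudocount of 1), 5 in SKOV3 (1) and 3 in both (0). For daughter against parental cells it gave 12 higher in Hey, 13 in SKOV3 and 4 in both, and 4 lower in Hey. For PGCCs against daughter cells it gave 9 higher in Hey and 11 lower in SKOV3, and 10 genes were higher in SKOV3 than in Hey in all states. The mean TPM filter left 2 genes higher in Hey PGCCs, because fewer genes are counted. Leaving out mitochondrial genes gave 2 higher in SKOV3 PGCCs and 6 higher in Hey daughter cells than in parental cells, and moved the median over genes whose mean TPM was 1 or more from 0 to 0.11 for Hey PGCCs against parental cells and from -0.12 to -0.22 for SKOV3 PGCCs against daughter cells. With the GC and length trend removed, 0 were higher and 7 lower in SKOV3 PGCCs. Median ratio scaling left the 24 counts within 1.5 times and moved that median from 0.15 to -0.02 for SKOV3 daughter against parental cells. For single genes, COL4A1 in Hey PGCCs against daughter cells came to -0.99 under median ratio scaling, -0.97 without mitochondrial genes and -0.77 with the trend removed, and COL12A1 in SKOV3 PGCCs against daughter cells to -0.98 with the trend removed. With all genes in the limma model, 0 collagen genes differed between the lines, and without the cell line term, that is with no replicate block, 0 differed between states, as with it. With 1 library per condition and no read counts, neither replicate error nor counting error is known. None of the named genes past the threshold changed sign in these alternatives.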
